A study of Mus musculus with 10 samples.

Results

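The respiratory chain genes of both genomes were examined in macrophages labelled Eff+ and Eff-, in a study of efferocytosis, the engulfment of dying cells, in mouse skin wounds. Members were taken by symbol: protein-coding genes beginning with Ndufa, Ndufb, Ndufc, Ndufs, Ndufv, Uqcr, Cox4i, Cox5 to Cox8 or Atp5, together with Sdha to Sdhd, Cyc1, Cycs and the 13 mitochondrially encoded genes, without assembly factors (Ndufaf) and pseudogenes. This gave 101 of the 55414 gene identifiers, 88 nuclear-encoded and 13 mitochondrially encoded. The nuclear-encoded members comprised 36 of complex I, 4 of complex II, 9 of complex III, 20 of complex IV and 18 of complex V (ATP synthase), and cytochrome c. Ndufa4 and Ndufa4l2 were counted with complex IV, where the Ndufa4 protein is known to sit, and Atp5s is a member by its prefix only. Of the 101 identifiers 100 had a count in at least 1 library. The exception was a second identifier that also carries the symbol Atp5o.

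The respiratory chain passes electrons from NADH (complex I) and succinate (complex II) through ubiquinone to complex III, by cytochrome c to complex IV and on to oxygen, and complex V uses the proton gradient to make ATP. All subunits of complex II and cytochrome c are nuclear-encoded, whereas complexes I, III, IV and V join nuclear-encoded subunits imported from the cytosol with a few made inside the mitochondrion from its own DNA. In macrophages the balance of oxidative phosphorylation and glycolysis is known to differ between inflammatory and reparative states, and the uptake of dying cells brings a load of lipid that mitochondria can oxidise.

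Wound libraries were 3 Eff+ and 3 Eff- samples of skin macrophages from LysMCreER/mTmG mice that had received tamoxifen for 6 days, with wounds collected at day 3. Culture libraries were 2 Eff+ and 2 Eff- samples of wild-type bone marrow cells grown with GM-CSF for 7 days, with apoptotic fibroblasts for 12 h listed in the labels of all 4. The culture Eff- column names carry the letters NOAC, so it is unclear whether those cells had met apoptotic cells. The inducible Cre is driven from the lysozyme M locus, which is active across myeloid cells and not in macrophages alone, and the mTmG reporter marks recombined cells. The labels used here give neither age nor a definition of Eff+ and Eff-.

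Polyadenylated RNA was sequenced, at 39735437 to 57308823 counts per wound library and 17622740 to 27261880 per culture library. In culture the libraries numbered 1 had counts in 35649 (Eff+) and 44836 (Eff-) genes, against 19649 (Eff+) and 18171 (Eff-) in those numbered 2. All 10 macrophage markers examined, among them Adgre1 (F4/80), Csf1r and Cd68, were detected in wound and culture cells. They took 0.375, 0.284 and 0.342% of counts in wound Eff+ libraries, against 0.852, 0.899 and 0.653% in wound Eff- libraries. The 18 neutrophil markers took 3.65, 4.0 and 3.44% of counts in wound Eff+ libraries, against 0.999, 0.652 and 1.10% in wound Eff- libraries. In the wound 16 of the 18 neutrophil markers were called higher in Eff+ and 5 of the 10 macrophage markers lower. The groups did not overlap for any of the neutrophil markers or for 9 of the 10 macrophage markers. The 14 fibroblast markers took 0.0923 to 0.284% of counts in wound Eff+ libraries, against 0.0356 to 0.181% in wound Eff- libraries, with 2 called higher. Keratinocyte markers took 0.000499 to 0.00305% of counts in wound Eff+ libraries, against 4.99e-05 to 0.000162% in wound Eff- libraries, and Krt5 and Krt14 among them were called higher. Skeletal muscle markers took 0.00204 to 0.00497% in wound Eff+ libraries, against 0.000846 to 0.00218% in wound Eff- libraries, with Mylpf called higher. Endothelial markers took 0.00309 to 0.00317% in wound Eff+ libraries, against 0.00510 to 0.00638% in wound Eff- libraries, with none called. These differences ran beside every wound result below, and their part in those results was not tested.

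**Figure D1:**
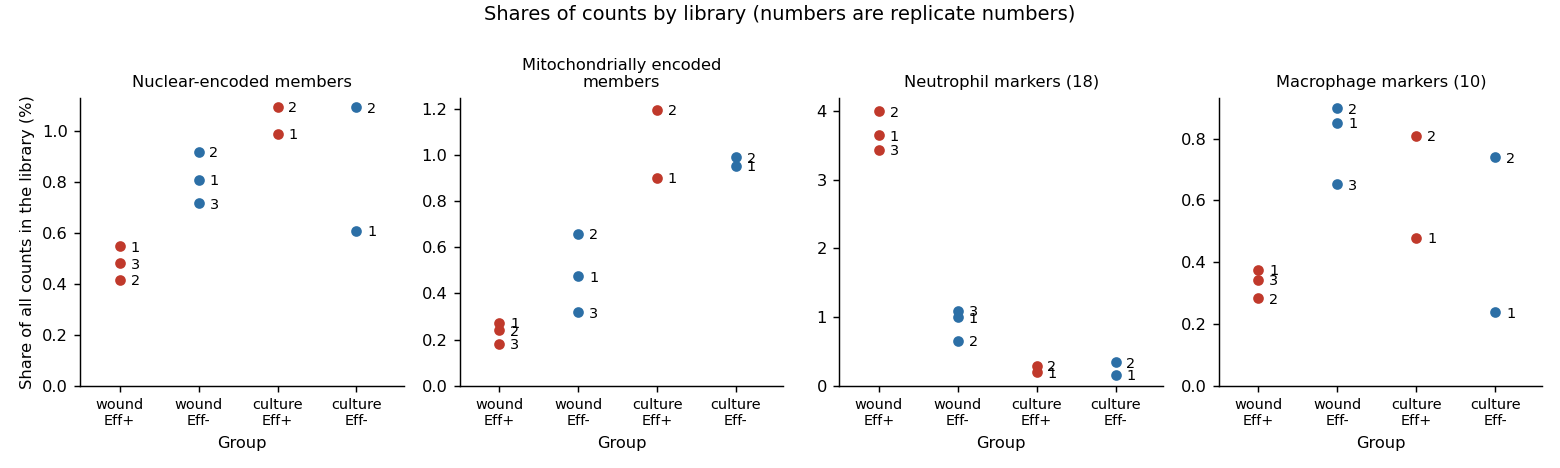
Share of all counts in each library (%, axes from 0) taken by nuclear-encoded members, mitochondrially encoded members, 18 neutrophil markers and 10 macrophage markers, with Eff+ in red and Eff- in blue and each point labelled with its replicate number. In the wound all 3 Eff+ libraries lie below all 3 Eff- libraries for both sets of members and for the macrophage markers and above them for the neutrophil markers, while in culture Eff- 1 stands apart at 0.608% for nuclear-encoded members. Shares are of unscaled library totals, on which the wound median log2 fold change (Eff+ over Eff-) of all tested genes was -0.42. After scaling, the most counted mitochondrially encoded genes, mt-Cytb and mt-Co1, overlapped between the wound groups.

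The promoters of 3 members are shown as examples that carry motifs of factors known to act on respiratory genes, and were picked for those motifs. Ndufs3 and Ndufa5 were called in the wound comparison below, and Uqcr11 was called in none. Among the other called members with a promoter, Atp5g1 held only an E box, and Ndufa10, Ndufb5 and Atp5s held none of the motifs searched. RefSeq promoters (GRCm38.p6, 250 bases before to 50 after the start) were found for 70 of the 87 nuclear-encoded members with a count. Capitals mark CCGGAAG, the motif of ETS factors such as GABP, on either strand in Ndufs3 and Uqcr11, and, in Ndufa5, GCGCA and GCGC with 1 base of any kind between them, the motif of nuclear respiratory factor 1 (NRF1). Ndufs3 is at chr2:90904672-90904971, Ndufa5 at chr6:24527477-24527776 and Uqcr11 at chr10:80406772-80407071, all on the minus strand.
Ndufs3: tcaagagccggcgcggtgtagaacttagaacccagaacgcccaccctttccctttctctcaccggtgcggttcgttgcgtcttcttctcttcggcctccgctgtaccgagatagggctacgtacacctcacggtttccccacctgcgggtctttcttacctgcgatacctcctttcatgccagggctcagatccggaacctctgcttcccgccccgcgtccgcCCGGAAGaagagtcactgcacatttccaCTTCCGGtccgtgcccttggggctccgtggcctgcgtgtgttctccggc
Ndufa5: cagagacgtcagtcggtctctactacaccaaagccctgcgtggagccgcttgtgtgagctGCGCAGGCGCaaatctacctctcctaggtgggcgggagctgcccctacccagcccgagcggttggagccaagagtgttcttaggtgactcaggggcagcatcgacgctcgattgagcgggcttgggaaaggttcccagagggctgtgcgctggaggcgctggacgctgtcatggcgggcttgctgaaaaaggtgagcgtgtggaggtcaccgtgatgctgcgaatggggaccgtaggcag
Uqcr11: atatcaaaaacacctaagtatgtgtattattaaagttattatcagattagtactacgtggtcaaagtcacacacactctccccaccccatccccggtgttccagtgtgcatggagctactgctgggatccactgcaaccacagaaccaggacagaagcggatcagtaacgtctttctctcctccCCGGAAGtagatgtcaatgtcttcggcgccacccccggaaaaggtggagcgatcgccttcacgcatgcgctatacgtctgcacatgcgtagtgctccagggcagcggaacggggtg
Searched on both strands, the NRF1 motif was in a promoter of 24.3% of these 70 members, against 5.19% of all 27025 genes with a promoter of the same length. The ETS motif was in 22.9% of these members, against 9.93% of all these genes. AAGATGGCG, the motif of YY1, was in 10% of these members, against 1.64% of all these genes. The E box CACGTG was in 8.57% of these members, against 8.09% of all these genes, and TATAAA was in 10%, against 15.7%. None of these motifs contains another of them. The 27025 genes were neither limited to those counted in these cells nor matched to the members for base composition. A match describes these letters only and is no evidence of binding.

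The first comparison asked how Eff+ and Eff- macrophages of the wound differed in these genes. The median change of respiratory chain transcripts was below 0 in Eff+ cells in every complex and for both genomes, by a modest amount. In all 8 members fell and none rose: Cyc1 and Uqcrb of complex III, Ndufs3, Ndufa10, Ndufb5 and Ndufa5 of complex I, and Atp5g1 and Atp5s of the complex V set. They were called by edgeR's quasi-likelihood test with Benjamini-Hochberg adjustment over all 14908 tested genes, at an adjusted p under 0.05. Over all genes 3.79% were called lower and 7.39% higher, so 8 of 95 tested members lower and 0 higher stood against those shares. The median log2 fold change (Eff+ over Eff-) was -0.39 over 84 tested nuclear-encoded members and -0.62 over 11 mitochondrially encoded ones, against -0.03 over all tested genes. Those 11 include mt-Nd3, mt-Co2, mt-Co3 and mt-Atp6, which were nearly uncounted, and the median of -0.62 is the value of mt-Atp6. Of the 95 tested members 87 had a negative log2 fold change, against 7645 of the 14908 tested genes. For 44 members every Eff+ library was below every Eff- library, where 18.1% of all tested genes had that pattern. The opposite pattern was found for 0 members, against 18.7% of all tested genes. In these bulk samples fewer cells of a type and less RNA per cell cannot be told apart.

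**Figure D2:**
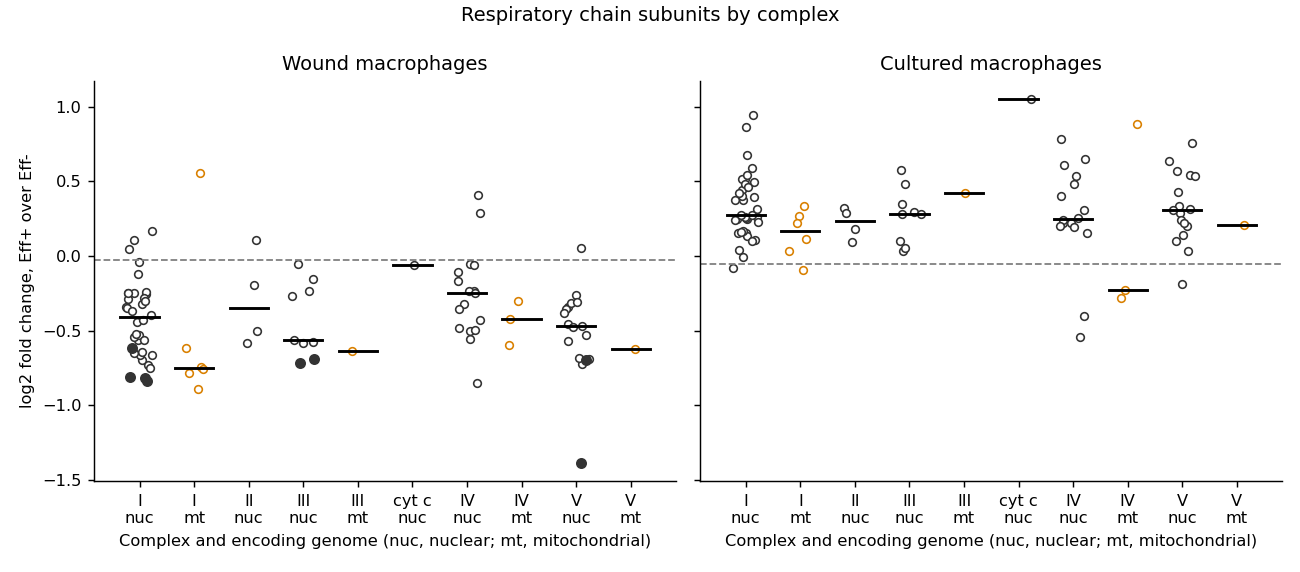
log2 fold change (Eff+ over Eff-) of each tested member by complex and encoding genome (nuc, nuclear; mt, mitochondrial, in orange), in wound macrophages on the left and cultured macrophages on the right. Filled points are called members, short bars are medians and the dashed line is the median of all tested genes, and wound points lie mostly below that line and culture points mostly above it.

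Complex III held the lowest median of the nuclear-encoded sets, -0.56 on the log2 scale, with all 9 of its tested members negative and 2 called. Of all tested genes 3.79% were called lower. Cyc1 (ENSMUSG00000022551, GRCm39 chromosome 15, 76227723 to 76230460) encodes cytochrome c1, the haem subunit that hands electrons to cytochrome c. It had 58.6, 54.5 and 59.5 CPM (counts in proportion to the scaled library size) in Eff+ libraries, against 93.25, 98.1 and 87.0 CPM in Eff- libraries. The groups did not overlap, and Cyc1 was 1.61-fold lower in Eff+ (log2 fold change -0.69, SE 0.14, edgeR adjusted p = 0.024). Uqcrb (ENSMUSG00000021520, chromosome 13, 67048681 to 67053442), a small subunit near the ubiquinone-binding site, had 64.4, 50.8 and 57.3 CPM in Eff+ libraries, against 87.5, 94.1 and 102 CPM in Eff- libraries. It was 1.64-fold lower in Eff+ with no overlap (edgeR adjusted p = 0.030), and 25.5% of the 50-base windows of its transcripts also occur in transcripts of other genes, mainly pseudogenes, so its counts are less certain.

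The other complex III members spanned a wide range. Uqcr11, a small subunit of the complex, had 40.9, 34.0 and 43.0 CPM in Eff+ libraries, against 54.8, 62.7 and 58.5 CPM in Eff- libraries. Its groups did not overlap, and its log2 fold change of -0.58 was not called (edgeR adjusted p = 0.054). Uqcrfs1, the Rieske iron-sulfur protein, had a log2 fold change of -0.23 (edgeR adjusted p = 0.34). Uqcrh, the hinge protein beside cytochrome c1, had 104, 94.4 and 77.7 CPM in Eff+ libraries, against 88.2, 111 and 87.7 CPM in Eff- libraries. Its groups overlapped, and its log2 fold change was -0.06 (SE 0.18).

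In complex I, the NADH dehydrogenase, 4 of 36 tested nuclear-encoded members fell, and 33 had a negative log2 fold change (median -0.41). The share called lower over all tested genes was 3.79%. The 7 nuclear-encoded core subunits, which carry the redox centres, had a median of -0.40 with 1 called, and the 29 accessory subunits had a median of -0.43 with 3 called. Ndufs3 (ENSMUSG00000005510, chromosome 2, 90724978 to 90735171), a core subunit of the peripheral arm, had 31.0, 25.3 and 30.5 CPM in Eff+ libraries, against 53.2, 59.5 and 41.9 CPM in Eff- libraries. It was 1.78-fold lower in Eff+ with no overlap (log2 fold change -0.84, SE 0.18, edgeR adjusted p = 0.031). Its promoter holds the ETS motif shown above.

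The 3 other called members of complex I were accessory subunits. Ndufb5 (ENSMUSG00000027673, chromosome 3, 32791139 to 32805715), of the membrane arm, had 26.3, 20.5 and 23.3 CPM in Eff+ libraries, against 38.2, 50.7 and 34.5 CPM in Eff- libraries (1.76-fold lower, edgeR adjusted p = 0.040). Ndufa5 (ENSMUSG00000023089, chromosome 6, 24518665 to 24528012), of the peripheral arm, had 12.3, 9.21 and 11.4 CPM in Eff+ libraries, against 16.6, 20.02 and 21.4 CPM in Eff- libraries (1.76-fold lower, edgeR adjusted p = 0.047). Ndufa10 (ENSMUSG00000026260, chromosome 1, 92366732 to 92401582), of the membrane arm, had 39.0, 38.8 and 41.1 CPM in Eff+ libraries, against 65.4, 63.8 and 53.3 CPM in Eff- libraries (1.54-fold lower, edgeR adjusted p = 0.039). All Eff+ libraries were below all Eff- libraries for each of these genes. At the other end of complex I, Ndufb2, an accessory subunit of the membrane arm, had 12.0, 7.50 and 7.345 CPM in Eff+ libraries, against 5.74, 8.76 and 9.38 CPM in Eff- libraries. Its groups overlapped, and its log2 fold change was 0.17 (SE 0.31).

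**Figure D3:**
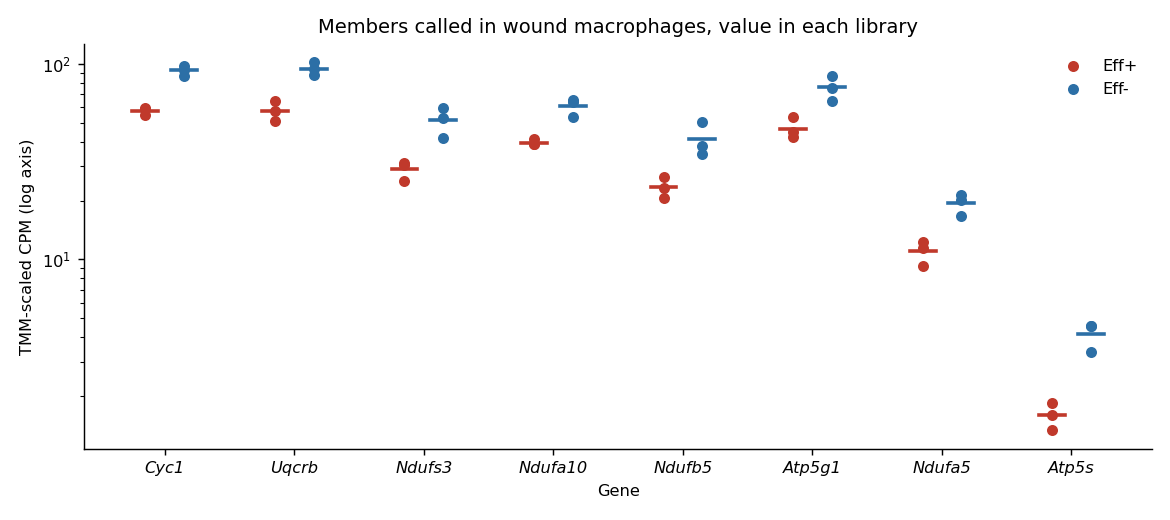
Scaled CPM (log axis) of the 8 members called in wound macrophages, with each point 1 library and short bars the group means, Eff+ in red on the left and Eff- in blue on the right of each gene. No Eff+ point reaches any Eff- point of the same gene, from Cyc1 at 54.5 to 59.5 against 87.0 to 98.1 CPM down to Atp5s at 1.34 to 1.84 against 3.37 to 4.59 CPM.

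Among the 17 tested nuclear-encoded members of complex V 2 fell, and 12 had no overlap between groups (median log2 fold change -0.47). Over all tested genes 3.79% were called lower, and 18.1% had every Eff+ library below every Eff- library. Atp5g1 (ENSMUSG00000006057, chromosome 11, 95959678 to 95966496), Atp5g2 and Atp5g3 each encode subunit c, which forms the rotor ring. Atp5g1 had 53.3, 44.6 and 42.2 CPM in Eff+ libraries, against 75.4, 87.1 and 64.8 CPM in Eff- libraries, and was 1.62-fold lower with no overlap (edgeR adjusted p = 0.043). Atp5g3 had a log2 fold change of -0.73 (edgeR adjusted p = 0.051) and Atp5g2 of -0.69 (0.059), each with no overlap and neither called. For Atp5g2 38.35% of the 50-base windows also occur in transcripts of other genes, mainly a pseudogene, so its counts are less certain. Atp5s (ENSMUSG00000054894, chromosome 12, 69771724 to 69791434), known as factor B, had 1.605, 1.84 and 1.34 CPM in Eff+ libraries, against 4.57, 3.37 and 4.59 CPM in Eff- libraries. It was 2.62-fold lower with no overlap (log2 fold change -1.39, SE 0.36, edgeR adjusted p = 0.048). Atp5l, subunit g of the membrane part, had 29.1, 30.7 and 26.9 CPM in Eff+ libraries, against 23.98, 32.2 and 27.5 CPM in Eff- libraries, with overlap and a log2 fold change of 0.05. Atpif1, the inhibitor of complex V, lies outside the symbol rule and had a log2 fold change of -0.58 with no overlap and no call (edgeR adjusted p = 0.071).

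Complex IV, the cytochrome c oxidase, held no called nuclear-encoded member among 17 tested (median log2 fold change -0.25). Cox7b, a small subunit, was the lowest of those with at least 5 CPM, at 54.2, 37.1 and 44.0 CPM in Eff+ libraries, against 58.8, 76.7 and 63.5 CPM in Eff- libraries. Its groups did not overlap, and its log2 fold change was -0.56 (SE 0.19, edgeR adjusted p = 0.10). Cox8a, another small subunit, was the highest, at 171, 152 and 131 CPM in Eff+ libraries, against 118, 133 and 122 CPM in Eff- libraries. Its groups overlapped narrowly, and its log2 fold change of 0.29 (SE 0.16) was not called (edgeR adjusted p = 0.28).

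Isoforms of complex IV that are typical of other tissues had few counts. Cox6a2 and Cox7a1 are known from heart and skeletal muscle, Cox6b2 from testis, and Cox4i2 and Ndufa4l2 from hypoxic cells. Cox6a2 and Cox6b2 stayed under 1 CPM and Cox4i2 under 2 CPM in each wound library. Cox7a1 had 1.06, 1.26 and 3.49 CPM in Eff+ libraries, against 2.13, 3.08 and 5.30 CPM in Eff- libraries, with overlap. Ndufa4l2 had 5.49, 12.6 and 20.7 CPM in Eff+ libraries, against 4.65, 18.3 and 23.0 CPM in Eff- libraries, so that it differed more between replicate numbers than between groups. None of these 5 was called. Cox7b2 and Cox8c had 0 counts in all 6 wound libraries, Cox8b had 8 counts in Eff+ 3 and 0 in the other 5, and these 3 were not tested.

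Complex II, the succinate dehydrogenase, had a median of -0.35 over its 4 members, none of them called. Sdhc, a membrane anchor that binds ubiquinone, had 50.2, 51.4 and 54.9 CPM in Eff+ libraries, against 66.1, 85.4 and 83.0 CPM in Eff- libraries, with no overlap (log2 fold change -0.58, edgeR adjusted p = 0.053). Sdha, the flavoprotein, had a log2 fold change of -0.19 with no overlap, and Sdhb, the iron-sulfur subunit, of -0.50 with overlap. Sdhd, the other membrane anchor, had 240, 188 and 188 CPM in Eff+ libraries, against 209, 193 and 171 CPM in Eff- libraries. The anchors thus stood at opposite ends of the complex, with a log2 fold change of 0.10 for Sdhd (SE 0.17). Cycs, cytochrome c, had 81.6, 70.0 and 64.9 CPM in Eff+ libraries, against 78.9, 74.1 and 72.6 CPM in Eff- libraries, with overlap and a log2 fold change of -0.06 (SE 0.15).

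The parts of the complexes in these counts differed between the groups. Nuclear-encoded members together took 0.547, 0.416 and 0.482% of all counts in wound Eff+ libraries, against 0.809, 0.919 and 0.717% in Eff- libraries. These shares are of unscaled library totals, on which the median log2 fold change of all tested genes was -0.42. Of the counts of nuclear-encoded members, complex IV made up 21.4 to 22.5% in Eff+ libraries, against 19.5 to 20.7% in Eff- libraries. Complex III made up 13.3 to 13.6% in Eff+ libraries, against 13.8 to 14.5% in Eff- libraries. Neither range overlapped, and complex II (9.77 to 10.5% in Eff+, 9.02 to 9.60% in Eff-) and Cycs (1.24 to 1.37% in Eff+, 0.961 to 1.12% in Eff-) also had higher parts in Eff+. Complex V was lower in part by a hair, at 24.7 to 26.6% in Eff+ libraries and 26.6 to 27.4% in Eff- libraries, and complex I overlapped. These parts are descriptions and carry no test.

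Of the 13 mitochondrially encoded genes 7 were well counted. Stretches of 2 genes are shown for how close their nuclear copies are, with mt-Co1 (subunit 1 of complex IV, bases 1054 to 1143 of its transcript) set beside its nuclear copy on chromosome 1, Gm29216 (bases 1 to 90), and mt-Co3 (subunit 3, bases 1 to 60) beside Gm28437 (bases 1 to 60). Capitals mark the bases that differ, 6 in the first pair and 0 in the second. The 6 are all the differences between mt-Co1 and its copy over 492 aligned bases (98.8% identity).
mt-Co1: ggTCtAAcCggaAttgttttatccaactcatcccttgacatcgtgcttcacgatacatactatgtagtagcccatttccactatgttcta
Gm29216: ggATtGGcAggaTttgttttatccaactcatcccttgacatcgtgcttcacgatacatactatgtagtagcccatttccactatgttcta
mt-Co3: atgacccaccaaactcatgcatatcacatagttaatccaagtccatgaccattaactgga
Gm28437: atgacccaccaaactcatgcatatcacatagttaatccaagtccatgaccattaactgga
In annotated transcripts (GENCODE vM21) mt-Co2, mt-Co3, mt-Atp6, mt-Nd3 and mt-Nd4l shared 98.0 to 100% of their 50-base windows with pseudogenes on chromosome 1. These 5 genes had between 0 and 71 counts in any of the 10 libraries, while mt-Co1, with 51.1% of windows shared, had at least 31464, and mt-Nd4, with 62.2% shared, had 6010 to 19194. The counting tool at its defaults does not count reads that map to several places, and the part of this in the low counts was not tested. mt-Atp8 shared no window with an annotated transcript and had at most 9 counts, and 21.1% of its exon length overlaps mt-Atp6. The search took in annotated transcripts only and would miss an unannotated copy, and the reason for its low counts was not tested. mt-Nd4l and mt-Atp8 were not tested.

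**Figure D4:**
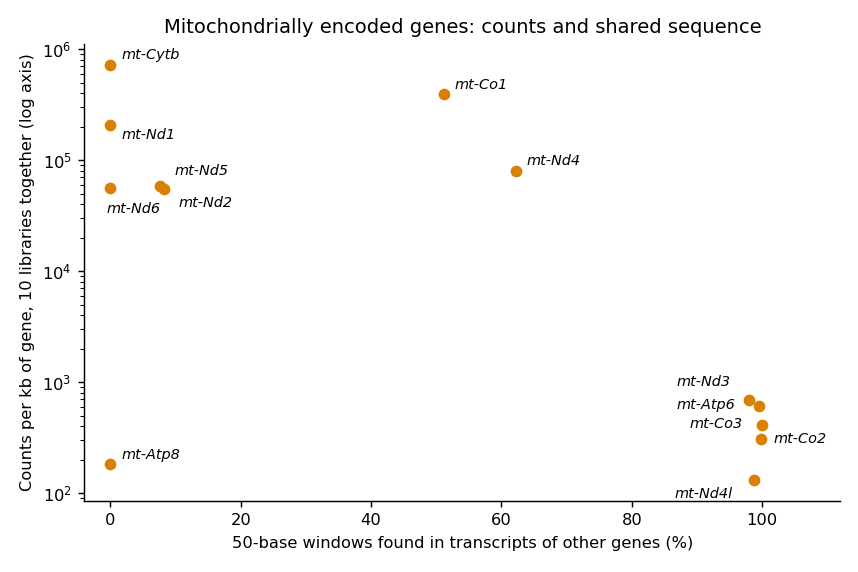
Counts per kb of gene, summed over the 10 libraries (log axis), against the percentage of 50-base windows found in annotated transcripts of other genes, for the 13 mitochondrially encoded genes. The 5 genes at 98.0 to 100% shared windows lie near the foot of the plot, as does mt-Atp8 at 0%, and the other 7 lie far above them.

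Each of the 7 well-counted mitochondrial genes had a negative log2 fold change, between -0.89 and -0.59, and none was called. mt-Nd6, the complex I subunit encoded on the other DNA strand from the rest, had 38.7, 33.6 and 23.3 CPM in Eff+ libraries, against 54.4, 82.0 and 40.8 CPM in Eff- libraries. Its groups did not overlap, by a small margin (log2 fold change -0.89, SE 0.29, edgeR adjusted p = 0.088). mt-Nd1, also of complex I, had 321, 341 and 245 CPM in Eff+ libraries, against 484, 720 and 359 CPM in Eff- libraries, and was the only other one with no overlap (log2 fold change -0.79, edgeR adjusted p = 0.10). mt-Cytb, the complex III subunit that binds ubiquinone, had 1145, 1067 and 731 CPM in Eff+ libraries, against 1474, 2099 and 1001 CPM in Eff- libraries. mt-Co1 had 1089, 1061 and 678 CPM in Eff+ libraries, against 1467, 1747 and 1053 CPM in Eff- libraries. In both genes the libraries numbered 3 were the lowest of their group and Eff- 2 the highest of all, and the groups overlapped through Eff- 3. The log2 fold changes were -0.64 for mt-Cytb, -0.59 for mt-Co1, -0.74 for mt-Nd2, -0.76 for mt-Nd5 and -0.62 for mt-Nd4, the last 3 all of complex I. The near-uncounted genes mt-Nd3 (0.56), mt-Co2 (-0.30), mt-Co3 (-0.42) and mt-Atp6 (-0.62) had SE values between 0.67 and 0.77.

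The balance of the genomes did not separate the groups. The ratio of mitochondrially to nuclear-encoded counts was 0.5, 0.576 and 0.378 in Eff+ libraries, against 0.587, 0.718 and 0.444 in Eff- libraries. These ranges overlapped, while the mitochondrially encoded share itself did not overlap, at 0.274, 0.239 and 0.182% of all counts in Eff+ libraries and 0.475, 0.659 and 0.318% in Eff- libraries. This share is of unscaled library totals, on which the median log2 fold change of all tested genes was -0.42. In scaled CPM the groups overlapped for mt-Cytb and mt-Co1, the most counted of the mitochondrially encoded genes. Per kb of a gene's merged annotated exons, mt-Cytb had the most counted reads of the members in both groups, at 858 CPM per kb in Eff+ and 1333 CPM per kb in Eff-. It shared no window with other transcripts, while mt-Co1 shared 51.1% and mt-Co2, mt-Co3 and mt-Atp6 nearly all. This order therefore ranks counted reads and not abundance among the mitochondrially encoded genes. The median nuclear-encoded member had 28.8 CPM per kb in Eff+ and 40.3 CPM per kb in Eff-, and the highest was Cox8a in Eff+ (244) and Cox6a1 in Eff- (268). Merged exons can be longer than any single transcript of a gene, so the nuclear-encoded values do not rank abundance either.

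Genes that build and control the chain were read beside the members. Of 7 lists, with 15, 13, 20, 24, 13, 11 and 19 tested genes, 5 genes in all rose and 4 fell in wound Eff+ macrophages. Over all tested genes 7.39% rose and 3.79% fell, so neither count stood above the background. Of 13 tested nuclear regulators 2 rose and none fell (median log2 fold change 0.24). Nrf1, which encodes the factor NRF1 whose motif is shown in the Ndufa5 promoter, had 62.3, 71.7 and 60.7 CPM in Eff+ libraries, against 30.7, 41.4 and 43.4 CPM in Eff- libraries. Gabpb1, a subunit of the ETS factor GABP, had 122, 142 and 115 CPM in Eff+ libraries, against 63.7, 44.4 and 59.9 CPM in Eff- libraries. Both groups of values were apart, with log2 fold changes of 0.75 for Nrf1 (edgeR adjusted p = 0.038) and 1.17 for Gabpb1 (0.013), opposite in sign to most members. With library totals as the only scaling Gabpb1 was still called (0.78) and Nrf1 was not (0.36, edgeR adjusted p = 0.18), the single call among the 9 that this scaling ended. Gabpa, the DNA-binding partner of Gabpb1, had a log2 fold change of 0.59 with no overlap and no call (edgeR adjusted p = 0.063). Esrra, an orphan receptor of respiratory genes, had a log2 fold change of 0.24 and overlapped. The coactivator Ppargc1b had 0 to 1.48 CPM per library, and Ppargc1a, its better known relative, had 16 counts in Eff- 3 and 0 in the other 5 wound libraries.

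Of 24 tested genes of mitochondrial genome upkeep and expression 1 fell and none rose (median log2 fold change -0.47). This was Lrpprc, which stabilises mitochondrial messenger RNA, at 10.3, 8.01 and 10.5 CPM in Eff+ libraries, against 15.1, 27.2 and 21.4 CPM in Eff- libraries. The groups did not overlap (log2 fold change -1.15, edgeR adjusted p = 0.034). Tfam, which packages mitochondrial DNA and starts its transcription, had a log2 fold change of -0.63 with no overlap and no call (edgeR adjusted p = 0.21), and Polrmt, the mitochondrial RNA polymerase, of -0.05 with overlap. Of 19 tested genes of mitochondrial mass and import 2 fell and none rose (median -0.43): Phb, the prohibitin scaffold of the inner membrane (-0.97, edgeR adjusted p = 0.014), and Timm50, a receptor of the inner membrane import channel (-1.01, 0.031).

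Most assembly factors were not called. Of 20 tested factors of complex IV 1 rose and 1 fell (median log2 fold change -0.32). Cox17, a copper chaperone for complex IV, had 77.3, 61.5 and 46.6 CPM in Eff+ libraries, against 24.1, 15.1 and 23.1 CPM in Eff- libraries, and was 2.98-fold higher with no overlap (edgeR adjusted p = 0.013). Cmc1, which takes part in the assembly of subunit 1, was lower in Eff+ (log2 fold change -0.96, edgeR adjusted p = 0.044). Of 15 tested factors of complex I only Ndufaf7, a methyltransferase of complex I assembly, was called, and it was higher (0.99, edgeR adjusted p = 0.015) while 14 of the 15 had a negative log2 fold change (median -0.41). Of 11 tested genes of ubiquinone synthesis only Coq4 was called, higher (1.42, edgeR adjusted p = 0.015, list median -0.31), and none of 13 tested factors of complexes II, III and V was (median -0.53).

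**Figure D5:**
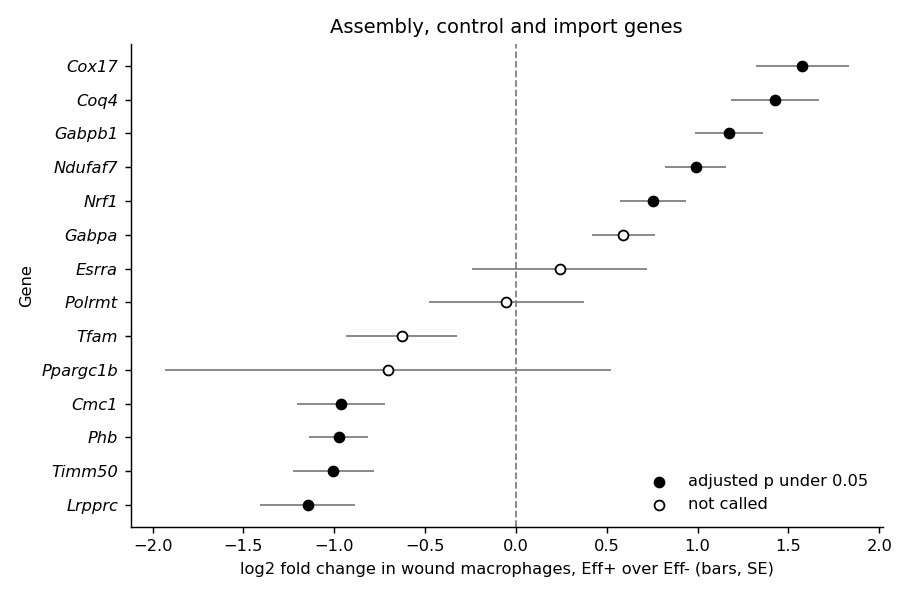
log2 fold change in wound macrophages (Eff+ over Eff-, bars SE) of called genes from the lists of assembly, control, ubiquinone synthesis and import genes, with Tfam, Polrmt, Gabpa, Esrra and Ppargc1b beside them, filled where called. Cox17, Coq4, Gabpb1, Ndufaf7 and Nrf1 lie to the right of 0 and Cmc1, Phb, Timm50 and Lrpprc to the left.

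Calls of single wound genes rested on the whole set of libraries. Without Eff+ 2, Eff+ 3, Eff- 1 or Eff- 2 in turn no member was called, without Eff- 3 2 members were, and without Eff+ 1 9 were, 4 of them among the 8. Over all genes 901 were called without Eff- 3 and 1347 without Eff+ 1. Without Eff+ 2 or without both libraries numbered 2 no gene of the whole table was called, which also ended the calls of the 9 genes beside the members, as did leaving out Eff- 2. Cox17 and Gabpb1 kept their calls without any other 1 library, Nrf1 lost its call without any 1 library, and the remaining 6 lost theirs without 1 or more of the other libraries as well. The median of nuclear-encoded members stayed between -0.50 and -0.35 without any 1 library and was -0.29 without both numbered 2. With library totals as the only scaling the median of all genes was -0.42, that of nuclear-encoded members -0.78 and that of mitochondrially encoded ones -1.04, and 66 members were called lower, against 17.8% of all tested genes. DESeq2 called 23 members, all lower, against 8.08% of all tested genes.

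The libraries' profiles were compared with other genes. Over the 6 wound libraries, among the genes outside the members whose log2 CPM followed the mean of the nuclear-encoded members most closely were Trappc2l, Synrg, Cops6 and Opa1, the last of which fuses inner mitochondrial membranes. Their Pearson r lay between 0.995 and 0.998, picked from the highest among all tested genes, over points that share the 2 groups.

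In cultured macrophages the same question was put to Eff+ and Eff- cells. No gene was called (0 of 14867 by edgeR, and 2 by DESeq2). At an unadjusted p under 0.05 stood 0 of 94 tested members, against 0.552% of all tested genes lower and 0.222% higher. Most members had a positive log2 fold change here (86 of 94), with medians of 0.28 for 83 nuclear-encoded and 0.21 for 11 mitochondrially encoded members, against -0.05 for all tested genes. The median of 0.21 is again the value of mt-Atp6, which had 30 and 71 counts in Eff+ libraries, against 11 and 59 counts in Eff- libraries. Every Eff+ library was above every Eff- library for 11 members, all nuclear-encoded (11.7%), where 11.3% of all tested genes had that pattern, and the reverse held for 0 members, against 9.42%. The count of separated members was thus near the background.

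The direction of these medians changed with the library left out. Each omission left the replicate numbers uneven between the groups, and the culture libraries numbered 1 and 2 differed in genes with a count. Nuclear-encoded members took 0.991 and 1.10% of counts in culture Eff+ libraries, against 0.608 and 1.09% in Eff- libraries, Eff- 1 alone being low. Without Eff- 1 the nuclear-encoded median was -0.11 and the mitochondrially encoded one -0.05, and without Eff- 2 they were 1.54 and 0.94. Without Eff+ 1 they were 0.54 and 0.68, and without Eff+ 2 0.16 and -0.53. The macrophage markers took 0.238% of counts in Eff- 1, against 0.740% in Eff- 2. The dendritic cell markers took 0.00433 and 0.00150% of counts in culture Eff+ libraries, against 0.0619 and 0.0164% in Eff- libraries. The monocyte markers took 0.0161 and 0.0180% in culture Eff+ libraries, against 0.0371 and 0.0563% in Eff- libraries. Both sets were thus higher in each Eff- library than in each Eff+ library, and their part in the result was not tested.

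Cycs had the largest log2 fold change of the culture members, 1.05 (SE 0.48). It had 117 and 111 CPM in Eff+ libraries, against 37.9 and 72.3 CPM in Eff- libraries, with no overlap. Of the 50-base windows of its transcripts 26.15% also occur in transcripts of other genes, mainly Gm10053, so its counts are less certain. Ndufa5 had 75.9 and 66.8 CPM in Eff+ libraries, against 25.2 and 49.0 CPM in Eff- libraries (log2 fold change 0.94, SE 0.48). Cycs and Ndufa5 were thus higher in both Eff+ libraries without being called. Of the other complexes the highest were Uqcr11 (0.57), Ndufa4 (0.78), Atp5k, subunit e of complex V (0.76), and Sdha (0.32), and the first 3 did not overlap. The lowest were Ndufa7 of complex I (-0.08), Sdhd (0.09), Uqcrfs1 (0.03), Atp5g2 (-0.19) and Cox7a2l, which joins complexes III and IV into supercomplexes (-0.54), all with overlap.

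The members called in the wound had these values in culture. Cyc1 had 282 and 210 CPM in Eff+ libraries, against 191 and 209 CPM in Eff- libraries, the closest pair nearly equal. Uqcrb had 37.9 and 143 CPM in Eff+ libraries, against 10.9 and 138 CPM in Eff- libraries, and so followed the replicate number. Ndufs3 had 64.6 and 77.2 CPM in Eff+ libraries, against 41.5 and 91.0 CPM in Eff- libraries. The remaining 4 beside Ndufa5 overlapped as well, with log2 fold changes of 0.14 for Ndufa10, 0.40 for Ndufb5, 0.54 for Atp5g1 and 0.43 for Atp5s.

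The third comparison asked whether the difference between Eff+ and Eff- itself differed between wound and culture. Over all 10 libraries no gene was called (0 of 20270 by edgeR, 797 by DESeq2, with 799 lower and 1423 higher at an unadjusted p under 0.05). DESeq2 called 1 member. At an unadjusted p under 0.05, 12 of 95 tested members were lower (wound minus culture) and 0 higher, where 3.94% of all tested genes were lower and 7.02% higher. The medians were -0.70 for nuclear-encoded and -0.86 for mitochondrially encoded members, against 0.32 for all tested genes. The smallest p of any member was that of Ndufa5, with a difference of -1.74 (SE 0.47, edgeR adjusted p = 0.24). Without culture Eff- 2, 53 members were called lower, against 4.77% of all genes then tested, and with any other 1 library left out no member was called.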

How the data were processed

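Grouping of the 10 libraries followed their titles. The authors deposited raw read counts per gene. Per the file headers, wound reads were counted with featureCounts 1.6.0 at default settings, with no strand option, on the Ensembl release 106 annotation of GRCm39, so reads of a gene and an antisense partner cannot be told apart. The culture table records no counting command. The submitters' processing notes name Trimmomatic 0.39, and no source used here gives the aligner. A further 4 culture columns fit no sample's labels and stayed out. GENCODE vM21 named 52081 of 55414 identifiers (99.91% of counts). Whether replicates were separate animals or cultures is not stated, so the spread behind each p-value may be technical. No replicate pair agreed within sampling noise.

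Each model was fitted over all genes with edgeR 4.0.16 (R 4.3.3), using TMM scaling, filterByExpr and quasi-likelihood tests (Eff+ over Eff-, no covariate), Benjamini-Hochberg adjustment and a threshold of 0.05. Another fit over all libraries tested the difference between models. CPM are TMM-scaled, and SE is the log2 fold change over the square root of its F statistic. The procedure was tested on simulated counts: the wound fit recovered most large changes and few small ones, while the culture fit and the fit of the difference recovered none, so an absence of calls in those fits does not show an absence of change. Members named are those called, the highest and lowest per complex and model with at least 5 CPM in 1 group's mean, the mitochondrial genes, tissue-restricted isoforms, complex II, Cyc1 and Cycs, together with called genes of 7 lists and a few fixed regulators. Members and lists were chosen with earlier results of these data known. Some items within this rule are not reported here. Atpif1 was looked up after its values were seen. Promoters are those of RefSeq (GRCm38.p6), and all other coordinates are GRCm39. Alternatives were other scalings and filters, DESeq2 1.42.0, limma-voom (limma 3.58.1), robust estimation, a replicate block and omission of each library.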

Additional observations from a re-analysis of the deposited data

Results flagged for a closer look

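For 6 named genes every Eff+ library lay on one side of every Eff- library in the wound and on the opposite side in culture. The difference itself (wound minus culture, log2 scale) was tested in the fit over all 10 libraries, and edgeR called none of them. It was -0.97 for Cyc1 (adjusted p = 0.38), -1.74 for Ndufa5 (0.24) and -1.13 for Uqcr11 (0.44). Among the genes beside the members it was -1.62 for Lrpprc (0.25), -1.32 for Phb (0.29) and 1.08 for Nrf1 (0.34). Of 94 members tested in both models 7 (7.45%) had all Eff+ libraries below all Eff- libraries in the wound and above them in culture, against 3.89% of all 13091 genes tested in both. With 2 culture libraries a group, 11.3% of all tested genes had all Eff+ above all Eff- in culture and 9.42% the reverse.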

How the results depend on the processing

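No member was called higher in the wound under any alternative run, and the medians of both genomes stayed negative. In brackets are the calls of each run over all genes, in either direction. The 8 calls (1666) became 6 (1582) with RLE scaling, 9 (1826) with no filter and 11 (1704) with robust estimation. They became 15 (1984) with a minimum of 1 CPM, 15 (1967) with limma-voom and 23 (3135) with DESeq2. With totals only they were 66 (3368), and the medians were -0.78 (nuclear) and -1.04 (mitochondrial). Member calls numbered 0 to 9 with 1 library left out (0 to 1347) and 0 without both libraries numbered 2 (0). In culture 0 members were called under every alternative, which says nothing about stability, since in most of these fits no gene of the whole table was called and at most 48 were. With 1 library left out the nuclear median ranged from -0.11 to 1.54 and the mitochondrial one from -0.53 to 0.94. For the difference between models DESeq2 called 1 member, and leaving out 1 library gave 0 to 53. The causes were not tested, beyond the fewer libraries of each omission, and a lone culture library is then assumed to vary like the other groups.

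With the replicate number as a block, 29 wound members were called, all lower, among 2985 calls over all 14908 genes, 7 of them among the 8, and the nuclear median was -0.40. In culture 0 members were called, with a nuclear median of 0.49. The deviations of same-numbered wound libraries correlated at 0.41, 0.02 and 0.23, and those of the 2 culture pairs at 0.74. With 2 libraries a group the deviations mirror each other, so both culture pairs must give the same value. Not every wound library correlated best with its own number, and the labels do not say that a number marks a shared animal or day, so the numbers are not taken as pairs.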

Other observations

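As a share of unscaled library totals, mitochondrial ribosomal RNA, which is no member, did not follow the mitochondrially encoded messengers. Polyadenylated RNA was sequenced, and the ribosomal RNA genes were not searched for shared sequence. The ribosomal RNA took 0.233, 0.242 and 0.157% of counts in wound Eff+ libraries, against 0.214, 0.272 and 0.141% in wound Eff- libraries, and these unscaled ranges overlapped nearly in full. In culture it took 0.472 and 0.389% in Eff+ libraries, against 0.601 and 0.407% in Eff- libraries.

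The symbol rule leaves out Usmg5, a small membrane subunit of complex V, which was looked up after its values were seen. It had 51.9, 43.2 and 53.4 CPM in wound Eff+ libraries, against 42.1, 54.9 and 49.1 CPM in wound Eff- libraries, with overlap and a log2 fold change of 0.02.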
